A study of Mus musculus with 8 samples.

Results

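Hepatokines are proteins that the liver secretes into the blood and that act on other organs or on the liver itself. The genes examined were Fgf21, Gdf15, Ahsg, Fetub, Lect2, Inhba, Inhbc, Inhbe, Fst and Hgf, a list of 10 that joins classical hepatokines with the activin genes of the liver. A gene was taken as measured where the array annotation gave a transcript cluster (the probe set that stands for 1 gene) with that symbol and no other. This held for 9 of the 10 genes, each with exactly 1 such cluster, out of 22180 genes with a single-symbol cluster on the array. Gdf15, a stress-induced hormone that lowers appetite, had none and was not analysed here.

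The study compared livers of male wild-type mice (WT, n = 3) with livers of male mice carrying a knockout of Abhd15 (KO, n = 5), all on the C57BL/6J background and on normal chow. Abhd15 is a fat cell protein needed for insulin to restrain fat breakdown. The design text gives an age of 14 weeks and an overnight fast followed by 1 hour of chow before the livers were taken, so the comparison asks how livers without Abhd15 differ shortly after a meal. The sources used here do not say how the allele was made or whether it acts in all tissues. Livers were measured on Mouse Gene ST arrays, 1 array a liver. Values are on the log2 scale, so a difference of 1 is a doubling. Each label speaks of a mouse but none identifies the animal, so the p-values cover only the variation among these arrays.

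Abhd15 itself read 5.64 ± 0.176 (SD, n = 3) in WT against 5.12 ± 0.0775 (SD, n = 5) in KO, with all KO arrays below all WT arrays. The groups did not overlap for 4.43% of all clusters. Its log2 difference of -0.52 (SE 0.129), 1.43-fold in size, had a limma adjusted p of 0.795, so it was not called. The liver identity of the samples was plain. The mean over 8 hepatocyte markers lay between 11.99 and 12.06 in WT arrays and between 11.91 and 12.08 in KO arrays, while 6 exocrine pancreas genes averaged 2.28 to 2.77 and 5 skeletal muscle genes 2.93 to 3.38, close to the array medians of 2.99 to 3.05. On the first principal component KO arrays 1 and 2 lay far from the rest, scoring 35.7 and 32.1 where the next array scored 0.661. On the second, KO array 4 scored 41.8 and the next array 4.16. Differences of the 9 genes and medians of the gene lists are given with and without KO arrays 1 and 2. In bulk liver, fewer cells of a type and less RNA per cell cannot be told apart.

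Activins are dimers of inhibin beta subunits. Inhba encodes the subunit of activin A, a signal made by many cell types, whereas Inhbc and Inhbe encode the subunits of activins C and E and are expressed mainly in hepatocytes. Activins bind type II receptors (Acvr2a, Acvr2b), which recruit type I receptors that phosphorylate SMAD2 and SMAD3, and follistatin (Fst) is a secreted protein that binds activin A and blocks it. In the mouse, liver activin E acts on fat tissue and restrains lipolysis. Fgf21 is a hormone of fasting and nutrient stress that acts through beta-klotho (Klb) and FGF receptors, and in liver its gene is driven by PPARA in fasting and by ATF4 in amino acid and mitochondrial stress. Ahsg and Fetub encode fetuin-A and fetuin-B, abundant plasma proteins of the cystatin superfamily, of which fetuin-A is known to inhibit the insulin receptor. Lect2 is a hepatocyte-derived protein linked to obesity and muscle insulin resistance, and Hgf, the ligand of the receptor Met, is made in liver mostly by stellate and endothelial cells.

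Inhbe and Inhbc are direct neighbours on chromosome 10, with 0 protein-coding genes between them in the RefSeq annotation, and Ahsg and Fetub are likewise direct neighbours on chromosome 16. RefSeq promoter windows on build GRCm38.p6 were found for 9 of the 10 listed genes, all but Fst, 12 windows in all. The 250 bases before the transcript start were searched on both strands for 5 motifs. These were the C/EBP-ATF response element TGATGCAA, through which ATF4 and CHOP act, the FOXO site GTAAACA, the cyclic AMP response element TGACGTCA, the E-box CACGTG and the DR1 element bound by PPARA, made of 2 copies of AGGTCA with 1 base between them. The windows of Fgf21 and Inhbe each held the C/EBP-ATF response element, which was present in 0.791% of 32851 promoter windows of the same length. The window of Inhbc, the neighbour of Inhbe, held none of the 5 motifs. These 3 windows are printed 5′ to 3′ because they set the shared 8-base element beside the array patterns of the 3 genes. Capitals mark matches, TTGCATCA being the reverse complement of the response element and CACGTG the E-box.
Fgf21, chr7:45615491-45615740, minus strand: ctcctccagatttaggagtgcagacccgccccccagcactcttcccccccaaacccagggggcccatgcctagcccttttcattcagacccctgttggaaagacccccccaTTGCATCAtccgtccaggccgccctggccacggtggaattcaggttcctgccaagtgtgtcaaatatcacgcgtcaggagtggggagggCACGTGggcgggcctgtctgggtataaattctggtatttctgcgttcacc
Inhbe, chr10:127351849-127352098, minus strand: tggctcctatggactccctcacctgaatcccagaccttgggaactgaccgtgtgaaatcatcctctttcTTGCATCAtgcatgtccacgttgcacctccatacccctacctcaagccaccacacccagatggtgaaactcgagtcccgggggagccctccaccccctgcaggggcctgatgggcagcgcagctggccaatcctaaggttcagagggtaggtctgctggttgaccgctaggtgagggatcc
Inhbc, chr10:127370549-127370798, minus strand: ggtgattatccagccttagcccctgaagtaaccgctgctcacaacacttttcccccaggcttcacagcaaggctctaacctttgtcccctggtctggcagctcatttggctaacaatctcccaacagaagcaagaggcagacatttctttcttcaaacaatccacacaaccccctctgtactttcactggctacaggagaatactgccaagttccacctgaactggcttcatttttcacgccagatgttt
The response element lay 139 to 132 bases before the start in Fgf21 and 181 to 174 bases before it in Inhbe. Fgf21 also held an E-box 50 to 45 bases before its start, a motif found in 6.02% of windows. Among the other members, the FOXO site (3.17% of windows) occurred in 1 of the windows of Hgf and 1 of those of Fetub, and the E-box in 1 of those of Gdf15. A match describes these letters only and does not show that a factor binds there. The Pearson correlation of Fgf21 and Inhbe over the 8 arrays was 0.23, and the part of the element in their values was not tested.

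None of the 9 measured genes passed an adjusted p of 0.05 with limma, where 0% of the 23521 tested clusters passed and 0.154 was the smallest adjusted value. Limma counted 1 of the 9 before adjustment, Inhbc, at p under 0.05, where 6.08% of all clusters did. An unmoderated linear model counted 0 after adjustment and 2 before it, Inhbc and Fetub, where 5.92% of all clusters passed before adjustment. The KO and WT arrays did not separate completely for any of the 9 genes, where they did for 4.43% of all clusters. In the mean, 6 genes were lower and 3 higher in KO, while 50.4% of all clusters were lower. The median log2 difference was -0.24 over the 9 genes and -0.002 over all clusters. The median size of the difference was 0.29 against 0.13 over all clusters. Without KO arrays 1 and 2, 4 genes were lower, beside 51.3% of all clusters, and 5 higher, the median difference was 0.01, and the median size was 0.08 against 0.15 over all clusters. Inhbc was then again the 1 gene with an unadjusted p under 0.05, as a lower value, beside 5.98% of all clusters in either direction, 3.07% lower and 2.91% higher.

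**Figure D1:**
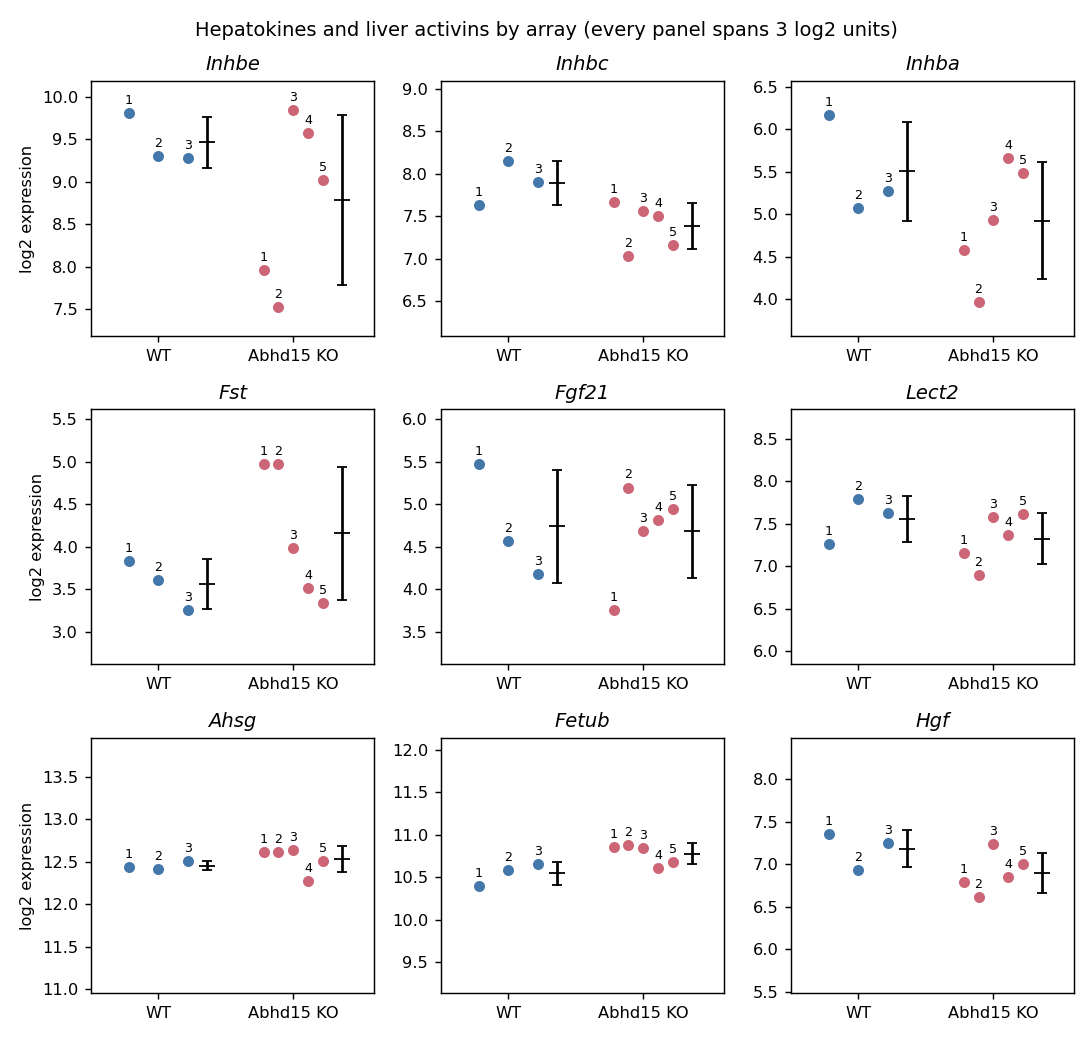
Log2 expression (vertical axis, each panel spanning 3 log2 units) of the 9 measured genes in 3 WT and 5 Abhd15 KO livers. Each point is 1 array with its replicate number, and black bars give the group mean ± SD. KO arrays 1 and 2 are the lowest of all arrays for Inhbe, Inhba, Lect2 and Hgf and the highest for Fst and Fetub, and the groups overlap in every panel.

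Inhbe, the hepatocyte gene for activin E, was low in 2 of the 5 KO livers and at or near the WT level in the others. It read 9.808, 9.303 and 9.280 in the WT livers and 7.961, 7.532, 9.841, 9.574 and 9.021 in the KO livers. The first 2 KO arrays lay far below every WT array, KO arrays 3 and 4 lay within or just above the WT range, and KO array 5 lay a little below it. Its spread among KO arrays, an SD of 1.01, was wider than that of 99.6% of the 7478 genes with a mean level of at least 5. The group means were 9.46 ± 0.298 (SD, n = 3) and 8.79 ± 1.01 (SD, n = 5), a log2 difference of -0.68 (SE 0.476, limma adjusted p = 0.878, exact permutation p = 0.339). With KO arrays 1 and 2 left out, the difference was 0.01 with a 95% interval from -0.54 to 0.57.

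Inhbc, the gene for activin C, had a lower mean in KO that did not rest on KO arrays 1 and 2, unlike its neighbour Inhbe. Levels were 7.630, 8.149 and 7.899 in WT and 7.663, 7.031, 7.564, 7.500 and 7.161 in KO arrays. All KO arrays but KO array 1 lay below every WT array, and KO array 1 lay just above the lowest WT array. The means were 7.89 ± 0.26 (SD, n = 3) and 7.38 ± 0.273 (SD, n = 5), a log2 difference of -0.51 (SE 0.185) with a 95% interval from -0.92 to -0.10. That is 1.42-fold in size, and the limma adjusted p was 0.795 with an unadjusted p of 0.0196. The exact two-sided permutation p was 0.0714, where the smallest that 56 splits of 8 arrays can give is 0.0179. Without KO arrays 1 and 2 the difference was -0.48 (95% interval -0.92 to -0.05), and the groups then no longer overlapped, as was so for 11.6% of all clusters. Leaving out WT array 2, the highest, reduced it to -0.38, and the unadjusted p then missed 0.05.

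Inhba, the gene for the activin A subunit, was lowest in the same KO livers as Inhbe. Levels of 6.168, 5.080 and 5.276 were seen in WT and of 4.582, 3.972, 4.936, 5.660 and 5.483 in KO arrays. WT array 1 was the highest of all, and KO arrays 1 to 3 lay below the WT range. The means of 5.51 ± 0.58 (SD, n = 3) and 4.93 ± 0.685 (SD, n = 5) gave a log2 difference of -0.58 (SE 0.376, limma adjusted p = 0.871, exact permutation p = 0.286). It was -0.15 (95% interval -0.84 to 0.54) without KO arrays 1 and 2 and -0.25 without WT array 1.

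Fst, the activin antagonist, was highest in those livers. In WT the arrays gave 3.836, 3.605 and 3.256, and in KO they gave 4.971, 4.976, 3.988, 3.518 and 3.335. KO arrays 1 and 2 exceeded every other array by close to 1 log2 unit, KO array 3 lay slightly above the WT range, and KO arrays 4 and 5 lay inside it. The WT level was near the array medians, so a signal above background is not shown there. The means were 3.57 ± 0.292 (SD, n = 3) and 4.16 ± 0.782 (SD, n = 5), a log2 difference of 0.59 (SE 0.381, limma adjusted p = 0.871, exact permutation p = 0.268), and it was 0.05 (95% interval -0.45 to 0.55) without KO arrays 1 and 2.

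The 20 other measured genes of activin signalling, which cover receptors, SMADs, further binding proteins and the other inhibin subunits, gave 0 calls. There were 13 higher and 7 lower in the KO mean, with a median log2 difference of 0.08 against -0.002 over all clusters, or 0.02 without KO arrays 1 and 2. At an unadjusted p under 0.05 there were 2 higher, beside 2.75% of all clusters, and 0 lower, beside 3.32%. The 2 were Inha, the inhibin alpha subunit, at 2.70 ± 0.225 (SD, n = 3) in WT against 3.25 ± 0.332 (SD, n = 5) in KO, and the type II receptor Acvr2b, at 4.04 ± 0.167 (SD, n = 3) and 4.43 ± 0.249 (SD, n = 5). Inha was dim in both groups. Their log2 differences were 0.55 (SE 0.199) and 0.39 (SE 0.166), with limma adjusted p-values of 0.795 and 0.81. Chosen after their values were seen, the main liver type II receptor Acvr2a had a difference of -0.10 (95% interval -0.38 to 0.19), and the SMAD partners Smad2, Smad3 and Smad4 had -0.17, -0.04 and 0.13. Among feedback genes of the pathway, named in the same way, Smad7 had 0.37 (SE 0.277) and Skil 0.46 (SE 0.243), or 0.18 without KO arrays 1 and 2, while Bambi had -0.33 (SE 0.178) and Pmepa1 -0.17.

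**Figure D2:**
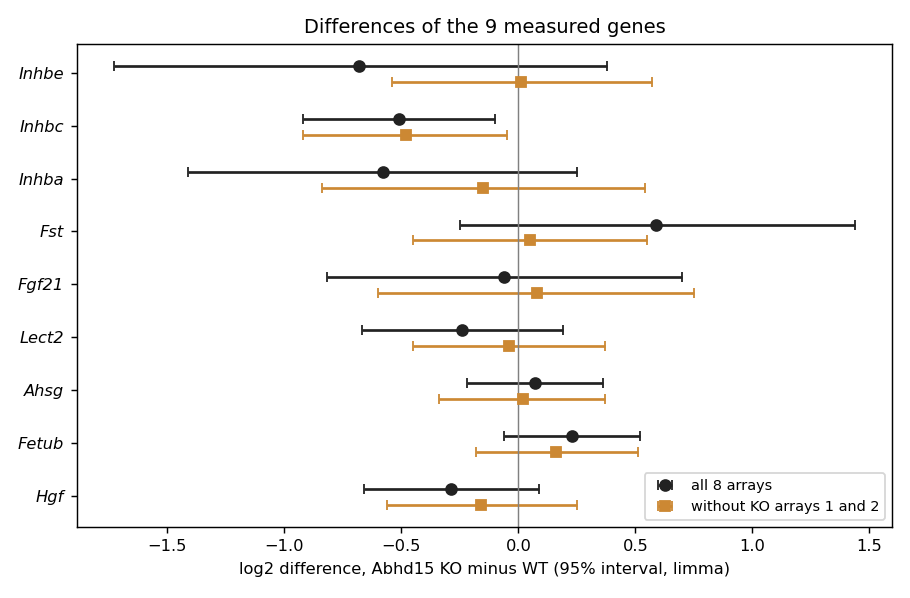
Log2 difference between Abhd15 KO and WT livers (horizontal axis) for the 9 measured genes, with 95% intervals from limma. Black circles use all 8 arrays and orange squares leave out KO arrays 1 and 2. Inhbc stayed at -0.48 without those arrays, whereas Inhbe went from -0.68 to 0.01 and Fst from 0.59 to 0.05.

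Fgf21 did not differ between the groups beyond its spread. In WT it read 5.474, 4.565 and 4.179, and in KO it read 3.754, 5.196, 4.689, 4.814 and 4.942. WT array 1 was the highest and KO array 1 the lowest, with the other arrays mixed. KO arrays 1 and 2, which were alike for Inhbe and Fst, here lay on opposite sides of the WT mean. The means of 4.74 ± 0.665 (SD, n = 3) and 4.68 ± 0.55 (SD, n = 5) gave a log2 difference of -0.06 (SE 0.344, limma adjusted p = 0.988, exact permutation p = 0.893). Its 95% interval from -0.82 to 0.70 leaves room for changes of either sign. The difference was 0.08 (95% interval -0.60 to 0.75) without KO arrays 1 and 2 and 0.31 without WT array 1.

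The receptors and known drivers of Fgf21 gave 0 calls among 15 measured genes, with 11 higher and 4 lower and a median log2 difference of 0.08. Without KO arrays 1 and 2 the direction turned, with 6 of the 15 higher and a median of -0.03. At an unadjusted p under 0.05 there were 0. The 2 with the smallest p were Nr1h4, the bile acid receptor FXR, with a log2 difference of -0.32 (SE 0.145, limma adjusted p = 0.83), and the receptor Fgfr3, at 5.24 ± 0.342 (SD, n = 3) and 4.72 ± 0.412 (SD, n = 5) (limma adjusted p = 0.837). Named after their values were seen, the co-receptor Klb had a log2 difference of -0.30 (SE 0.16), Fgfr4, the main hepatocyte FGF receptor, 0.06 (SE 0.167), Ppara 0.06 (SE 0.164), and Atf4 0.26 (SE 0.17), or 0.13 without KO arrays 1 and 2.

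Genes that share regulators with Fgf21 were set beside it. Of 20 measured PPARA targets, 17 were lower in KO and 3 higher, with a median log2 difference of -0.30, and 9 were lower at an unadjusted p under 0.05, beside 3.32% of all clusters, with 0 after adjustment. The median was -0.31 without KO arrays 1 and 2. Vnn1, a pantetheinase, had a difference of -0.83 (SE 0.189), and Acaa1b, a peroxisomal thiolase, -0.79 (SE 0.192), both with a limma adjusted p of 0.795. Lower values of fatty acid oxidation genes were already known from earlier results of these arrays, so this list gives no independent support for a direction. Of 24 measured ATF4 and CHOP targets, 19 were higher and 5 lower, with a median of 0.12, or 0.10 without KO arrays 1 and 2, and 4 were higher at an unadjusted p under 0.05, beside 2.75% of all clusters, with 0 after adjustment. Asns, asparagine synthetase, read 4.915, 4.348 and 4.790 in WT and 7.749, 7.511, 5.290, 5.527 and 5.262 in KO, and Cebpb, a liver transcription factor, had a difference of 0.62 (SE 0.226). With KO arrays 1 and 2 left out, the difference was 0.68 for Asns and 0.32 for Cebpb.

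Lect2 was slightly lower in KO arrays 1 and 2 only. The WT livers gave 7.263, 7.789 and 7.627, and the KO livers gave 7.159, 6.901, 7.579, 7.363 and 7.616. The 3 remaining KO arrays lay inside the WT range. The means of 7.56 ± 0.269 (SD, n = 3) and 7.32 ± 0.299 (SD, n = 5) gave a log2 difference of -0.24 (SE 0.194, limma adjusted p = 0.892, exact permutation p = 0.321), which was -0.04 (95% interval -0.45 to 0.37) without KO arrays 1 and 2. Single arrays also moved it, to -0.12 without WT array 2, -0.13 without KO array 2 and -0.38 without WT array 1.

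The fetuins varied least among the 9 genes. Fetub, which encodes fetuin-B, read 10.393, 10.588 and 10.656 in WT and 10.855, 10.880, 10.844, 10.606 and 10.680 in KO. All KO arrays but KO array 4 lay above every WT array, and KO array 4 lay between the WT arrays. The means were 10.55 ± 0.137 (SD, n = 3) and 10.77 ± 0.122 (SD, n = 5), a log2 difference of 0.23 (SE 0.131) with a 95% interval from -0.06 to 0.52. It was 1.17-fold in size, with a limma adjusted p of 0.857 and an exact permutation p of 0.0536. Quantile normalization between arrays left no overlap between the groups, as was so for 4.42% of all clusters in that setting. The difference was 0.16 without KO arrays 1 and 2 and 0.15 without WT array 1.

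Ahsg, the neighbour of Fetub and the gene for fetuin-A, read 12.442, 12.418 and 12.513 in WT and 12.619, 12.612, 12.641, 12.277 and 12.507 in KO. KO arrays 1 to 3 lay above every WT array, KO array 5 lay inside the WT range and KO array 4 below it. The means of 12.46 ± 0.0494 (SD, n = 3) and 12.53 ± 0.151 (SD, n = 5) gave a log2 difference of 0.07 (SE 0.131, limma adjusted p = 0.955, exact permutation p = 0.5). It was 0.02 (95% interval -0.34 to 0.37) without KO arrays 1 and 2 and 0.14 without KO array 4.

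Both fetuins are negative acute phase proteins in mammals, falling in inflammation, and were set beside the rest of that class. Of 11 other measured negative acute phase genes, 6 were higher and 5 lower, with a median log2 difference of 0.05, or -0.05 without KO arrays 1 and 2, and 0 at an unadjusted p under 0.05. Hrg, histidine-rich glycoprotein, a further member of the cystatin superfamily, read 11.31 ± 0.0552 (SD, n = 3) in WT against 11.46 ± 0.0547 (SD, n = 5) in KO with no overlap (difference 0.15, limma adjusted p = 0.889, exact permutation p = 0.0179). Apoa2, an HDL apolipoprotein, read 12.62 ± 0.0111 (SD, n = 3) and 12.49 ± 0.106 (SD, n = 5), also without overlap (difference -0.13, limma adjusted p = 0.902, exact permutation p = 0.0536). The groups did not overlap for 4.43% of all clusters. Of 23 measured positive acute phase genes, 20 were higher and 3 lower, with a median of 0.19, and 15 were higher, with a median of 0.11, without KO arrays 1 and 2. At an unadjusted p under 0.05 there were 3 higher, beside 2.75% of all clusters, with 0 after adjustment. The 2 with the smallest p were the metallothionein Mt2 (0.85, SE 0.244) and the protease inhibitor Serpina3n (0.46, SE 0.183), both with a limma adjusted p of 0.795.

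Hgf had a slightly lower mean in KO, within the spread. The 3 WT livers gave 7.356, 6.934 and 7.254 and the 5 KO livers 6.789, 6.613, 7.237, 6.844 and 6.998. KO arrays 1, 2 and 4 lay below the WT range, and KO arrays 3 and 5 lay inside it. The means of 7.18 ± 0.22 (SD, n = 3) and 6.90 ± 0.235 (SD, n = 5) gave a log2 difference of -0.29 (SE 0.168, limma adjusted p = 0.858, exact permutation p = 0.161), which was -0.16 (95% interval -0.56 to 0.25) without KO arrays 1 and 2.

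The cells that make Hgf in liver were read from their markers. The mean over 10 of 10 stellate cell and fibroblast markers ranged from 5.74 to 5.94 in WT and from 5.59 to 6.01 in KO, with 6 markers higher and 4 lower. Lrat, the retinol-esterifying enzyme of stellate cells, was named after its values were seen, at 6.79 ± 0.0572 (SD, n = 3) in WT against 6.45 ± 0.172 (SD, n = 5) in KO without overlap (difference -0.34, limma adjusted p = 0.795, exact permutation p = 0.0357). The mean over 8 of 8 sinusoidal endothelial markers ranged from 7.49 to 7.50 in WT and from 7.45 to 7.61 in KO, with 2 markers higher and 6 lower. Among the higher was Lyve1, a hyaluronan receptor also named after its values were seen, at 7.09 ± 0.0841 (SD, n = 3) in WT against 7.75 ± 0.261 (SD, n = 5) in KO without overlap. Its difference was 0.65 (limma adjusted p = 0.795, exact permutation p = 0.0179). The median log2 difference was 0.03 over the 10 stellate cell and fibroblast markers and -0.05 over the 8 endothelial markers. In each of these 2 lists 1 marker had no overlap between the groups, beside 4.43% of all clusters. The mean over 8 of 8 Kupffer cell markers ranged from 5.88 to 6.41 in WT and from 5.66 to 6.81 in KO. The part of these cells in the Hgf values was not tested.

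The receptor and the proteases that activate or restrain HGF gave 0 calls in 14 measured genes, with 9 higher and 5 lower, a median log2 difference of 0.04, or -0.01 without KO arrays 1 and 2, and 0 at an unadjusted p under 0.05. Plau, the urokinase that can cleave pro-HGF, read 4.00 ± 0.0222 (SD, n = 3) in WT against 4.37 ± 0.287 (SD, n = 5) in KO (limma adjusted p = 0.826), and its receptor Plaur 2.87 ± 0.176 (SD, n = 3) and 3.45 ± 0.664 (SD, n = 5) (limma adjusted p = 0.853). Plaur was dim, and its difference of 0.58 was 0.12 without KO arrays 1 and 2. Named after their values were seen, the receptor Met had a difference of -0.15 (SE 0.145), and Hgfac, the serum protease that activates HGF, 0.12 (SE 0.131).

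Across the 9 genes, the pattern that recurred was that of KO arrays 1 and 2. Both lay below the other 6 arrays for 4 genes (Inhbe, Inhba, Lect2 and Hgf), beside 5.77% of all clusters, and above them for 2 (Fst and Fetub), beside 5.57%. In either direction this held for 11.3% of all clusters. For Fetub the margin was small, with 10.855 in the lower of the 2 arrays against 10.844 in the next. Fgf21, Inhbc and Ahsg did not show it. These arrays had been singled out in earlier results on all genes, so the count describes the 9 genes and is not a test.

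Several insulin-responsive and early response genes outside the list, picked after their values were seen, had the same array pattern. Angptl8, a hepatokine gene that insulin and feeding raise, read 8.500 and 9.368 in KO arrays 1 and 2 and 10.032 to 10.718 in the other 6. Irs2, an insulin receptor substrate whose gene insulin represses, read 6.291 and 6.010 against 4.282 to 5.224. Nr4a1, an early response gene, read 7.054 and 7.145 against 3.729 to 4.828. Igfbp1, whose gene insulin also represses, read 10.257 and 9.562 against 4.353 to 6.884, but its higher values were not confined to that pair. KO arrays 3 and 4, at 6.051 and 6.884, also lay above the highest WT array, at 5.781, while KO array 5 read 5.656. Without KO arrays 1 and 2 the log2 difference of Igfbp1 was 1.35, with a limma adjusted p of 0.807 in that fit.

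KO arrays 1 and 2 also stood apart in list means, most widely for 2 of the lists. By smaller margins, both lay above every other array for the ATF4 and CHOP targets (5.40 and 5.25, next 5.16). The same held for the HGF receptor, activators and inhibitors (6.09 and 6.16, next 5.98). It held too for the activin signalling genes (5.17 and 5.13, next 5.08) and the negative acute phase genes (11.27 and 11.32, next 11.20). In the ATF4 and CHOP list, Asns alone read 7.749 and 7.511 in KO arrays 1 and 2, against at most 5.527 in the others. How far that 1 gene set the small margin of its list was not tested. The 2 lists with the widest margins follow. The mean over 19 genes induced by glucagon, glucocorticoid or loss of insulin signalling was 7.54 and 7.39 in KO arrays 1 and 2, against 6.52 to 6.68 in the other KO arrays and 6.30 to 6.61 in WT. In that list 16 genes were higher and 3 lower, with a median of 0.28, or 0.11 without the pair of arrays, and 0 passed the adjusted threshold. Its smallest p belonged to Slc25a25, a mitochondrial carrier (0.89, SE 0.263, or 0.57 without the pair), and the clock gene Per1 (0.65, SE 0.201, or 0.52). The mean over 23 immediate early genes was 6.15 and 6.17 in KO arrays 1 and 2, against 4.87 to 5.02 in the other KO arrays and 4.78 to 4.90 in WT. There 21 genes were higher and 2 lower, with a median of 0.48, or 0.15 without the pair, and 0 passed. The transcription factor genes Klf4 (0.45, SE 0.168) and Atf3 (0.85, SE 0.32) had the smallest p. Without the pair Atf3 was at 0.44 and Klf4 at 0.52. Klf4 did not show the pattern of the pair, since KO arrays 1 and 2 (4.002 and 3.950) were its lowest KO arrays. The part of these lists in the values of the 9 genes was not tested.

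**Figure D3:**
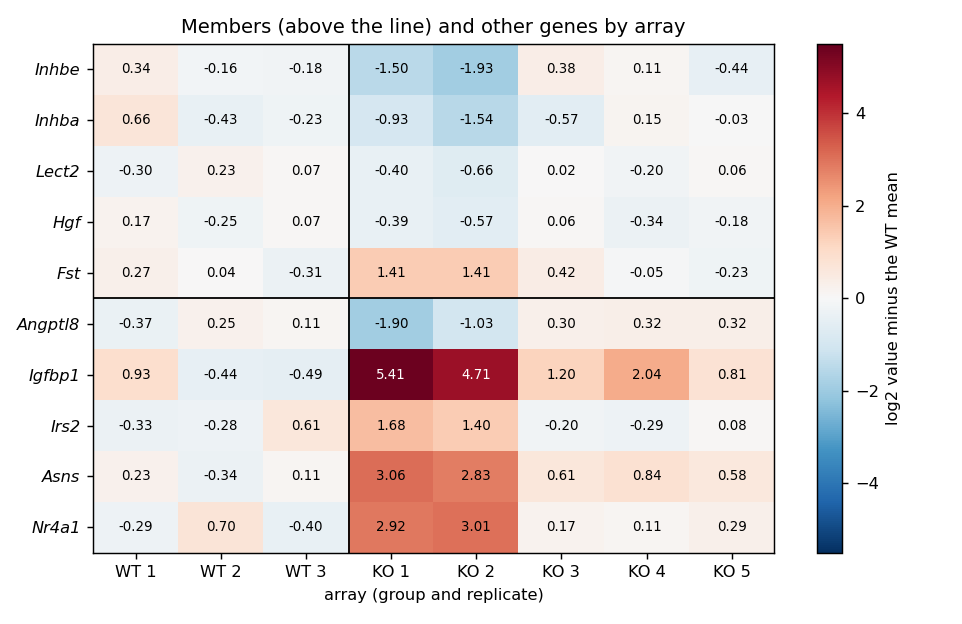
Log2 value of each gene minus its WT mean (colour and printed number) in every array, for 5 of the measured genes above the horizontal line and 5 other genes below it, picked with their values known. KO arrays 1 and 2 hold the lowest values of Inhbe (-1.5 and -1.93) and Angptl8 (-1.90 and -1.03) and the highest of Fst (1.41 in both) and Igfbp1 (5.41 and 4.71).

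The genes most like each member were taken as the 3 with the highest Pearson correlation over the 8 arrays, out of up to 7478 genes with a mean level of at least 5. This is a description of 8 arrays of 1 tissue, deposited in 1 table. With so many candidates a high value is usual, since the median over all these genes of their own best correlation was 0.965. For Inhbe they were Jagn1 (0.967), Ddx56 (0.958) and Vps50 (0.955), and without KO arrays 1 and 2 the values were 0.81, 0.90 and 0.78. For Fst they were Nt5dc3 (0.975) and the histone demethylase genes Kdm7a (0.974) and Kdm6b (0.971), with 0.91, 0.80 and 0.92 without that pair.

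Among the other activin genes, Inhbc was closest to P2ry4 (0.973), Cyb561a3 (0.946) and Arhgef19 (0.943), and Inhba to Brd7 (0.978), Mtm1 (0.957) and Ankrd49 (0.952). Ahsg was closest to Qsox1 (0.972), a secreted sulfhydryl oxidase, Serpina11 (0.961) and Hc (0.960), which encodes complement C5. Fetub was closest to Serpinb1a (0.975), B4galt5 (0.964) and Tollip (0.943). Lect2 was closest to Zfp708 (0.980), Kcnk5 (0.952) and the hepatocyte cytochrome gene Cyp1a2 (0.950). Hgf was closest to Zmat3 (0.970), Atox1 (0.968) and Ehd3 (0.951). Fgf21 had the weakest match, to Pi4k2b (0.939), Mogs (0.904) and Daxx (0.896).

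Within the list, some relations between members also turned on KO arrays 1 and 2, while others changed little without them. The correlation over 8 arrays between Inhbe and Inhba was 0.81 and between Inhbe and Fst -0.78, and over the 6 arrays without that pair they were 0.21 and 0.87. The relation of Inhbe to Fst therefore changed sign, but over those 6 arrays Fst read only 3.256 to 3.988. That is near the array medians of 2.99 to 3.05, which limits the value of 0.87. For the neighbours Inhbe and Inhbc the correlation was 0.44 over 8 arrays and 0.06 over 6. For the neighbours Ahsg and Fetub it was 0.74 and 0.60, and for Inhba and Fetub -0.89 and -0.84.

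**Figure D4:**
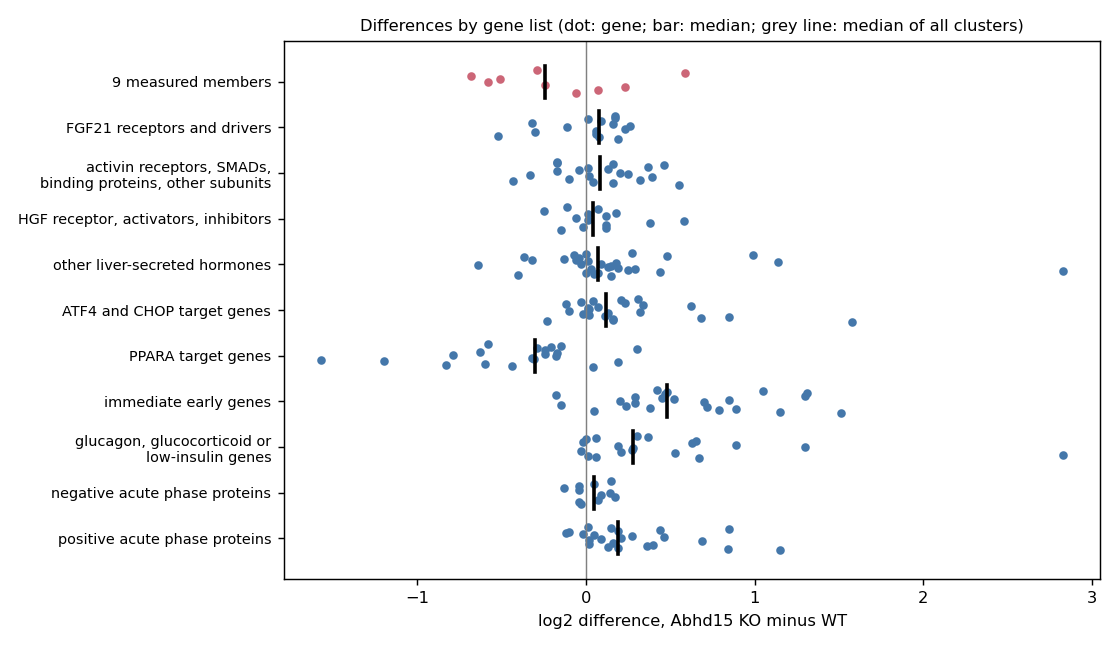
Log2 difference between Abhd15 KO and WT livers (horizontal axis) for the 9 measured genes (red) and the genes of the 10 other lists (blue), 1 point a gene, with a black bar at each list's median. The grey line is the median of all clusters, -0.002. The 9 genes have a median of -0.24, the PPARA targets -0.30 and the immediate early genes 0.48.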

How the data were processed

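The authors deposited 1 table of log2 expression values for 41345 transcript clusters and 8 arrays, which was used as it stands. Per the submitters' processing notes, RMA and oligo are named with no role given, while the series design text names Expression Console. The sources used here give no settings or versions, and the log2 scale was inferred from the range of the values (0.409 to 13.27). Per the labels' protocols, 200 ng of Trizol-extracted RNA was labelled with biotin. Slides and scan dates are unknown here, so batches were not examined.

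Groups came from the sample titles. Clusters were named from the platform annotation, in which 23521 have 1 symbol, 1814 several and 16010 are unnamed here, and the cluster of highest mean stands for each gene. KO minus WT was fitted over all 23521 clusters with limma 3.58.1 in R 4.3.3 (lmFit, eBayes, two-sided, Benjamini-Hochberg), which was tested on simulated data. Limma p-values in the report come from this fit. Exact permutation tests are two-sided over 56 splits. The number of arrays limits the precision. Alternatives were trend and robust settings, an unmoderated model, array weights, median centring, quantile normalization, a filter on dim clusters, all clusters, a replicate block, and leaving out each array or KO arrays 1 and 2.

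The text names all members, the 2 genes of smallest p in each list, the 3 genes most like each member, and others said to be chosen after their values were seen. Members and lists were chosen with earlier results of these data known.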

Additional observations from a re-analysis of the deposited data

Results flagged for a closer look

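None of the 9 measured genes had a single KO array far from the other 4 by Dixon's criterion for a group of 5 (critical value 0.71). Among the other genes checked, Plau was low in KO array 5, at 3.887, with 0.727 of the group's range lying between it and the next array. Apoa2 was low in KO array 4, at 12.312, with a share of 0.740. Of 32 genes checked these were 2, and chance alone flags a small share of such groups. Checked were the 9 members, the 2 genes of smallest p in each list, Abhd15, Igfbp1 and Angptl8. Other genes named in the text were not checked. Lyve1 is 1 of these, at 8.210 in KO array 1 against 7.582 to 7.651 in the other KO arrays. The WT group of 3 was not checked. Inhbe and Fst were not singled out because KO arrays 1 and 2 lay together.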

How the results depend on the processing

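Over 17 alternatives, 147 of 151 differences of single members kept their direction, and none passed an adjusted p of 0.05. The exceptions were Fgf21, at 0.31 without WT array 1, 0.17 without KO array 1 and 0.08 without KO arrays 1 and 2, and Inhbe, at 0.01 without KO arrays 1 and 2. Fgf21 and Fst have means under 5 and no value under the filter on dim clusters. Each member has 1 cluster, so averaging clusters could not be run.

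The number of clusters past the adjusted threshold was 0, and became 3 with trend and robust settings, 1 among clusters with a mean of at least 5, 3 with all clusters fitted together and 1 with the replicate block. The members with an unadjusted p under 0.05, 1 in the report, were 2 in some fits. These were trend and robust settings, the unmoderated model and the replicate block, where 6.21%, 5.92% and 7.73% of all clusters passed. With the block they were Inhba (-1.01) and Fst (1.08), and Inhbc missed. Leaving out 1 array gave 0 to 2, with 0 without WT array 2 and 2 without KO array 3 or KO array 5. The shares of all clusters were then 5%, 5.74% and 7.22%, in that order. The members whose groups do not overlap, 0 in the report, were 1 with quantile normalization, 1 without KO arrays 1 and 2, and 0 to 2 leaving out 1 array, with 2 without WT array 1 (Inhbc and Lect2) and 1 without WT array 2 (Hgf), WT array 3 or KO array 4 (Fetub), or KO array 1 (Inhbc). The share of all clusters not overlapping, 4.43% with all arrays, was then 10.5%, 9.89%, 10.3%, 6.98% and 6.38%, in that order for the single arrays. It was 4.42% with quantile normalization and 11.6% without KO arrays 1 and 2. Arrays with the same number in both groups did not deviate together (correlations over clusters of -0.048, 0.016 and 0.021), so the block rests on a shared number alone. KO array 4 and KO array 5 have no WT array of the same number and do not enter the block's differences. Those differences therefore rest more on KO arrays 1 and 2 than the main fit does.

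Leaving out 1 array, the difference ranged from -0.94 to -0.36 for Inhbe, -0.64 to -0.38 for Inhbc, -0.80 to -0.25 for Inhba, 0.39 to 0.80 for Fst, -0.34 to 0.31 for Fgf21, -0.38 to -0.12 for Lect2, 0.05 to 0.14 for Ahsg, 0.15 to 0.28 for Fetub and -0.41 to -0.20 for Hgf. Signal near the array median limits Fst, Inha and Plaur.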

Other observations

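Other liver-secreted hormones were measured for 29 of 36 listed genes. In the KO mean 18 were higher and 11 lower, with a median log2 difference of 0.07, and 0 passed the adjusted threshold with limma, while 4 were higher and 2 lower at an unadjusted p under 0.05, beside 2.75% and 3.32% of all clusters. Gdf2, the gene for BMP9, a TGF-beta family ligand of endothelial cells that is made in the liver, read 5.622, 5.671 and 5.396 in WT and 4.710, 4.538, 4.852, 5.147 and 5.348 in KO. All KO arrays lay below all WT arrays, where 4.43% of all clusters had no overlap in either direction. The difference of -0.64 (SE 0.19) had a limma adjusted p of 0.795 and an exact permutation p of 0.0357. It was -0.45 without KO arrays 1 and 2.

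Cdnf, a secreted neurotrophic factor, was dim, at 2.67 ± 0.706 (SD, n = 3) in WT against 3.66 ± 0.321 (SD, n = 5) in KO, with no overlap (limma adjusted p = 0.795). Serpinb1a, a protease inhibitor known as a liver-derived factor for beta cells in mice and chosen after its values were seen, averaged 4.43 ± 0.496 (SD, n = 3) in WT against 5.57 ± 0.618 (SD, n = 5) in KO livers. Its difference was 1.14 (SE 0.339, limma adjusted p = 0.795, exact permutation p = 0.0536) and 0.78 without KO arrays 1 and 2. Igf1, the main liver growth factor, also chosen after its values were seen, read 9.78 ± 0.082 (SD, n = 3) and 9.78 ± 0.194 (SD, n = 5), with a 95% interval of the difference from -0.32 to 0.32.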
